A study of Homo sapiens with 6 samples.

Results

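The antisense long non-coding RNAs of A2780 cells were described after treatment with SCR-6920, an inhibitor of the arginine methyltransferase PRMT5 per the series title. They were chosen by name and by level, as the non-coding rows of the count table whose name ends in AS and a number and whose mean raw count over the 6 samples was at least 30. This gave 253 of 1055 rows with such a name, out of 7173 non-coding rows and 24054 rows in all. Of the other rows with such a name, 182 held no count in any sample and 620 had counts but fell under the threshold. Each antisense RNA was set beside its sense gene, which is the gene named before the hyphen.

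An antisense long non-coding RNA is transcribed from the strand opposite to a known gene, and is named after that gene. It can share the gene's promoter and run away from it, start downstream and run into the gene's end, or lie inside an intron. Some act on the sense gene by pairing with its transcript, by recruiting chromatin enzymes or through the act of transcription. Others, such as OIP5-AS1, act on microRNAs or proteins made elsewhere, so the name by itself gives a position and not a function.

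A2780 is an established human ovarian cancer cell line, labelled wild type here. RNA was sequenced from 3 samples given the solvent DMSO and from 3 given 1 µM SCR-6920, in both groups after 48 h. PRMT5 places symmetric dimethyl marks on arginines of histones and of splicing proteins. The design text asks what PRMT5 does in these cancer cells. The samples held 38149448 to 39749993 counts each. PRMT5 itself, whose transcript an inhibitor of the enzyme need not change, had a log2 fold change of 0.02 ± 0.03 (SE) and an adjusted p of 0.705. No label says that the replicates were grown apart, so p-values measure the spread among these 6 samples, which may be technical. Of the ovarian epithelial markers, PAX8, MUC16, KRT7 and MSLN averaged under 0.09 CPM (counts scaled to a common library total) in either group. EPCAM rose from 0.236 ± 0.186 to 0.819 ± 0.149 CPM (SD, n = 3; edgeR, adjusted p = 0.0103). From the same list, FOLR1 stood at 0.960 and 1.23 CPM and did not pass (edgeR, adjusted p = 0.439). KRT19, CDH1 and L1CAM were too low to be tested, at 0.0585, 0.144 and 0.152 CPM in DMSO and 0.192, 0.139 and 0.305 CPM after SCR-6920. KRT8, a keratin, rose from 1.90 to 2.82 CPM (adjusted p = 0.0456), and KRT18 stood at 2.17 and 2.96 CPM (adjusted p = 0.123). The mesenchymal markers VIM and CDH2 were abundant. VIM rose from 2790 to 3190 CPM (edgeR, adjusted p = 1.26e-09), and CDH2 stood at 131 and 124 CPM and did not pass (edgeR, adjusted p = 0.105). COL3A1, a collagen gene taken as a fibroblast marker, rose slightly, from 343 CPM in DMSO to 361 CPM after SCR-6920 (edgeR, adjusted p = 0.0286). COL1A1 rose from 8.18 to 15.7 CPM (edgeR, adjusted p = 5.16e-09). From the same list, COL1A2 went from 10.3 to 13.0 CPM (edgeR, adjusted p = 0.0172). DCN, LUM and PDGFRB were low, at 0.691, 0.656 and 2.05 CPM in DMSO and 0.916, 0.549 and 2.49 CPM after SCR-6920. These 3 did not pass (edgeR, adjusted p = 0.557, 0.708 and 0.354). The endothelial markers PECAM1, CDH5 and VWF and the leukocyte marker PTPRC were at or near 0, whereas CD68, from the leukocyte list, fell from 3.05 to 2.09 CPM (adjusted p = 0.0458). The part of these markers in the results was not tested. In bulk RNA, fewer cells of a kind and less RNA per cell cannot be told apart.

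After SCR-6920, 50 of the 253 antisense RNAs fell, 16 rose and 187 did not pass the test. All adjusted p-values of genes below are Benjamini-Hochberg values from edgeR's quasi-likelihood test over 14233 genes, with 0.05 as the threshold, and each log2 fold change compares SCR-6920 with DMSO and is given with its SE. The 66 calls were 26.1% of the antisense RNAs, against 42.0% of all genes tested. Falls were 19.8% of the antisense RNAs against 21.3% of all genes, and rises 6.32% against 20.6%. Among the 680 other non-coding rows with the same minimum count, 26.9% were called, 16.9% fell and 10.0% rose, so the share called lay near that of other non-coding RNAs. Among 11662 protein-coding rows with that minimum, 47.9% were called, 24.0% lower and 23.8% higher. The median log2 fold change was -0.17 for the antisense RNAs, -0.10 for the other non-coding rows, 0.0035 for the protein-coding rows and -0.0019 for all genes tested. Of the 253, 66.0% lay below 0, against 50.3% of all genes. The difference between these shares and medians was not tested.

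Most antisense RNAs were scarce. Their mean raw counts ran from 30.2 to 6630 with a median of 85.3, and 139 of them lay under 100. Together they took 0.169%, 0.165% and 0.164% of all counts under DMSO, and 0.146%, 0.145% and 0.147% after SCR-6920. Every SCR-6920 sample thus lay below every DMSO sample. Without the 2 most abundant, FGD5-AS1 and OIP5-AS1, the shares were 0.137%, 0.134% and 0.133% against 0.121%, 0.12% and 0.122%. The share called grew with abundance, as it did for protein-coding genes in the same count ranges. It was 13.7% of 139 antisense RNAs with a mean count from 30 to 100, where 16.3% of protein-coding genes were called. From 100 to 300 it was 37.0% of 73, against 31.0% of protein-coding genes. From 300 to 1000 it was 47.1% of 34 against 44.9%, and at 1000 or more it was 57.1% of 7 against 56.7%. Falls outnumbered rises from 30 to 100 counts with 14 against 5, from 100 to 300 with 22 against 5 and from 300 to 1000 with 12 against 4. At 1000 counts or more 2 fell and 2 rose. Several of these counts moved when a sample was left out. From 30 to 100 counts, the falls were 9 without DMSO replicate 2, while leaving out SCR-6920 replicate 1 gave 8, and the rises were 3 without SCR-6920 replicate 2 or 3. From 100 to 300 counts, the rises were 3 without DMSO replicate 3, while leaving out SCR-6920 replicate 1 gave 2. At 1000 counts or more, 1 rise was left without DMSO replicate 3 or any one SCR-6920 replicate.

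The changes that passed were often large. Past 2-fold stood 17 of the 66, with 12 lower and 5 higher. This was 6.72% of the antisense RNAs against 2.84% of all genes tested, and 25.8% of called antisense RNAs against 6.76% of called genes. At low counts a change must be large to pass, and the median SE of the log2 fold change was 0.33 from 30 to 100 counts and 0.05 at 1000 counts or more. The values of DMSO and SCR-6920 samples did not overlap for 96 of the 253, or 37.9%, against 50.6% of all genes. All 66 called antisense RNAs were among the 96.

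**Figure D1:**
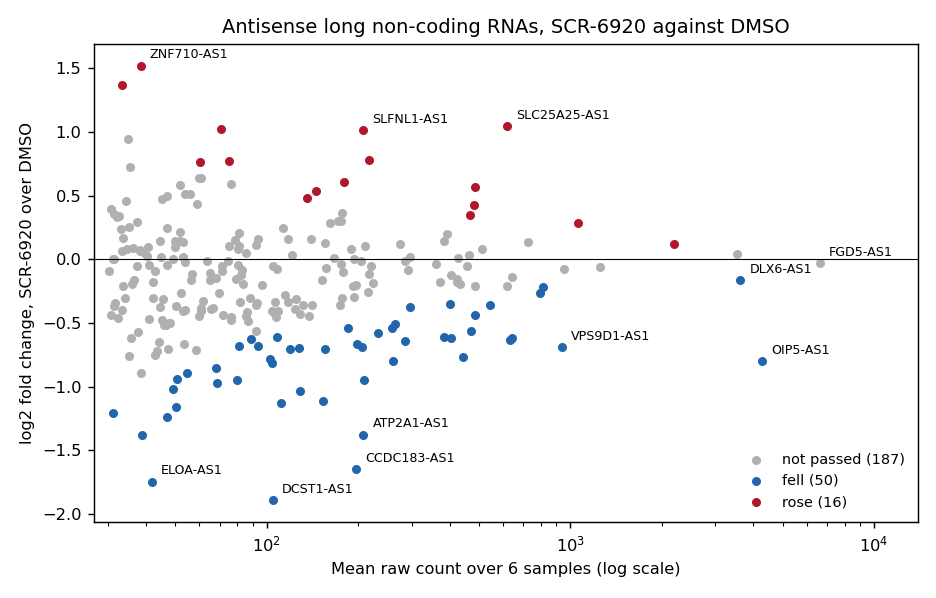
Log2 fold change of each of the 253 antisense RNAs (y axis, SCR-6920 over DMSO) against its mean raw count over 6 samples (x axis, log scale); blue points fell, red points rose and grey points did not pass an adjusted p of 0.05. OIP5-AS1 is the abundant RNA with the clearest fall, at -0.80, while FGD5-AS1, the most abundant, sits at -0.03.

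Among the 6 most abundant antisense RNAs, OIP5-AS1 and DLX6-AS1 fell, TP73-AS1 rose slightly, and FGD5-AS1, TRHDE-AS1 and CCDC144NL-AS1 did not pass. OIP5-AS1, named after the centromere factor gene OIP5 and also called Cyrano, carries a long, nearly perfect site for miR-7 and in mouse drives the destruction of that microRNA. It is shown here because that site makes it one of the few antisense RNAs whose working sequence is known. In the miRNA, from RefSeq on GRCh38.p14, capitals mark the seed at bases 2 to 8. In the site, at bases 2871 to 2894 of the 8829-base GENCODE v29 transcript OIP5-AS1-201 from chromosome 15, capitals mark the bases that pair with the seed.
hsa-miR-7-5p: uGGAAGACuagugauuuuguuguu
OIP5-AS1 site: caacaaaatcaccaatGTCTTCCa

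Apart from the seed match, an unbroken run of 12 bases at the 5′ end of the stretch shown is complementary to positions 11 to 22 of the miRNA. An unpaired stretch lies between the run and the seed match. The stretch was cut to 24 bases, the length of the miRNA, so the run could extend beyond it. That transcript held 3 seed matches for miR-7, and the longest such run was 5 and 4 bases at the other two. OIP5-AS1 stood at 140, 138 and 139 CPM in DMSO and at 81.5, 81.5 and 76.5 CPM after SCR-6920. The groups lay far apart beside the spread within each, at 139 ± 1.34 and 79.8 ± 2.91 CPM (SD, n = 3). Its log2 fold change was -0.80 ± 0.04, with an adjusted p of 4.47e-17. OIP5 fell less, from 11.5 ± 0.916 to 8.72 ± 0.384 CPM (log2 -0.40 ± 0.11, adjusted p = 0.00405), and the change of the ratio did not pass its own test (limma, adjusted p = 0.243). MiR-7 itself was not analysed here.

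FGD5-AS1, the most abundant of the 253 by mean count, was at 173, 175 and 169 CPM in DMSO and 170, 169 and 168 CPM after treatment. These groups overlapped, and its log2 fold change was -0.03 ± 0.03 with an adjusted p of 0.536. Its sense gene FGD5, an exchange factor for the small GTPase CDC42, was too low to be tested, with a mean of 0.0413 FPKM against 38.9 FPKM for the antisense RNA. FPKM is a count scaled to the sample total and to the length of the gene, so it allows levels of different genes to be compared. DLX6-AS1, which contains the homeobox gene DLX6 and whose mouse counterpart Evf2 regulates the Dlx5 and Dlx6 genes, was at 97.3, 99.4 and 98.3 CPM and then at 87, 87.7 and 89 CPM. The groups did not overlap, but the fall was small (log2 -0.16 ± 0.04, adjusted p = 0.00126). DLX6 did not pass (log2 -0.02 ± 0.05, adjusted p = 0.81).

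TRHDE-AS1 was at 98.9, 87.3 and 82.2 CPM in DMSO and 93.8, 93.4 and 88.8 CPM after SCR-6920. Its groups overlapped (log2 0.04 ± 0.05, adjusted p = 0.589), whereas TRHDE, which encodes an enzyme that degrades thyrotropin-releasing hormone, fell (log2 -0.27 ± 0.05, adjusted p = 3.35e-05). Without DMSO replicate 3 the value of TRHDE-AS1 was -0.02, and without DMSO replicate 1 it was 0.12 and passed. TP73-AS1, antisense to the p53 family gene TP73, was at 53.4, 55.7 and 53.2 CPM in DMSO and at 59.5, 58 and 59.2 CPM after SCR-6920. The groups were separate by a narrow margin (log2 0.12 ± 0.05, adjusted p = 0.0406). That call was lost on leaving out any sample other than DMSO replicate 2, with adjusted p-values up to 0.122. TP73 itself fell, from 5.74 ± 1.07 to 4.06 ± 0.323 CPM (log2 -0.50 ± 0.16, adjusted p = 0.0131). CCDC144NL-AS1 was at 34.6, 30.2 and 33.5 CPM and then at 32, 32 and 30.4 CPM, with overlapping groups (log2 -0.06 ± 0.07, adjusted p = 0.492).

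The deepest falls were seen in antisense RNAs of low to moderate level. DCST1-AS1 was at 4.62, 3.85 and 4.16 CPM in DMSO and at 0.891, 1.59 and 0.918 CPM after SCR-6920. All 3 treated samples lay well below the DMSO samples, at 0.27 times their level (log2 -1.89 ± 0.24, adjusted p = 8.9e-08). ELOA-AS1, which meets tail to tail with the gene for the transcription elongation factor elongin A, was at 2.17, 1.45 and 1.3 CPM and fell to 0.446, 0.494 and 0.525 CPM. DMSO replicate 1 was the highest sample here (log2 -1.74 ± 0.37, adjusted p = 0.000286). ELOA stayed close, at 183 ± 3.83 and 187 ± 2.03 CPM (log2 0.03 ± 0.03, adjusted p = 0.494). CCDC183-AS1 was at 7.83, 8.11 and 6.95 CPM and then at 2.8, 2.24 and 2.26 CPM. This was 0.319 times the DMSO level, with tight groups (log2 -1.65 ± 0.16, adjusted p = 5.4e-10).

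ATP2A1-AS1 lies inside the gene of the muscle calcium pump SERCA1. It was at 7.6, 7.09 and 8.32 CPM in DMSO and at 2.67, 3.17 and 3.02 CPM after SCR-6920, so the groups were apart by more than their spread (log2 -1.38 ± 0.15, adjusted p = 7.92e-09). Its level of 9.11 FPKM was far above the 0.483 FPKM of ATP2A1, which did not pass (log2 -0.02 ± 0.31, adjusted p = 0.966). SLC9A3-AS1, beside a gene for a sodium-proton exchanger, was at 5.76, 5.1 and 5.19 CPM and then at 2.23, 2.5 and 2.7 CPM. Its fall was again wider than the spread within groups (log2 -1.11 ± 0.18, adjusted p = 4.45e-06). VPS9D1-AS1 combined a high level with a clear fall, from 29.8, 28.5 and 30.5 CPM to 17.3, 19.1 and 18.5 CPM. Its groups did not overlap (log2 -0.69 ± 0.07, adjusted p = 3.06e-09), while VPS9D1, at 0.912 FPKM against 13.7 FPKM for the antisense RNA, did not pass (log2 0.10 ± 0.19, adjusted p = 0.725).

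4 further antisense RNAs that fell past 2-fold stood at low levels, as ELOA-AS1 did. DDX11-AS1, beside the gene of a helicase of sister chromatid cohesion, was at 1.79, 1.3 and 1.2 CPM and then at 0.288, 0.338 and 1.02 CPM. SCR-6920 replicate 3 stood much closer to the DMSO samples than the other treated samples did, and the call (log2 -1.38 ± 0.43, adjusted p = 0.00936) was lost without SCR-6920 replicate 1 or 2, at adjusted p-values of 0.0648 and 0.065. LENG8-AS1 was at 1.72, 1.89 and 1.45 CPM and fell to 0.446, 0.833 and 0.865 CPM (log2 -1.23 ± 0.35, adjusted p = 0.00442). CYP1B1-AS1, beside the gene of a cytochrome P450, was at 2.07, 2.17 and 1.1 CPM and then at 0.786, 0.703 and 0.892 CPM. DMSO replicate 3 lay between the treated samples and the other DMSO samples (log2 -1.16 ± 0.34, adjusted p = 0.00596). MYLK-AS1, tail to tail with the myosin light chain kinase gene, was at 0.808, 1.07 and 1.45 CPM and then at 0.288, 0.546 and 0.603 CPM (log2 -1.21 ± 0.44, adjusted p = 0.0257). That call was lost on leaving out DMSO replicate 2, DMSO replicate 3 or the first SCR-6920 replicate, at adjusted p-values up to 0.145.

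Fewer antisense RNAs rose, and 5 did so past 2-fold. SLC25A25-AS1, tail to tail with the gene of a mitochondrial ATP-Mg/phosphate carrier, had the clearest rise. It was at 11.9, 9.66 and 9.8 CPM in DMSO and at 20.9, 20.7 and 23.1 CPM after SCR-6920, with wide separation (log2 1.04 ± 0.10, adjusted p = 1.37e-10). SLC25A25 was at 25.4 ± 0.407 and 25.1 ± 2.38 CPM and did not pass (log2 -0.02 ± 0.07, adjusted p = 0.877). SLFNL1-AS1 was at 4.04, 3.16 and 3.44 CPM and rose to 6.68, 7.7 and 7.08 CPM. The lowest treated sample was well above the highest DMSO sample (log2 1.01 ± 0.15, adjusted p = 1.96e-06). BCAN-AS1, named after the gene of the brain proteoglycan brevican, was at 1.34, 0.943 and 1.33 CPM and then at 2.28, 2.65 and 2.41 CPM (log2 1.02 ± 0.27, adjusted p = 0.00263).

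ZNF710-AS1 had the largest fold of the rises but few counts, a mean of 38.5. It was at 0.454, 0.79 and 0.301 CPM and then at 1.05, 1.95 and 1.44 CPM, a wide spread in both groups without overlap (log2 1.52 ± 0.41, adjusted p = 0.00294). CIRBP-AS1, inside the gene of the cold-inducible RNA-binding protein, was at 0.631, 0.357 and 0.451 CPM and then at 0.734, 1.43 and 1.57 CPM. SCR-6920 replicate 1 was just above the DMSO samples (log2 1.37 ± 0.43, adjusted p = 0.00993), and the call was lost without SCR-6920 replicate 2 or 3, at adjusted p-values of 0.0549 and 0.0658. LHX4-AS1, named after a LIM homeobox gene of pituitary development, was at 9.77, 10.3 and 10.3 CPM and rose to 14.4, 14.8 and 15.8 CPM. Both groups were tight (log2 0.57 ± 0.10, adjusted p = 1.95e-05), and LHX4 itself was too low to be tested.

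TRAM2-AS1 starts 142 bases from the gene of the translocation-associated membrane protein TRAM2 and runs the other way. It was at 3.86, 4.59 and 3.99 CPM in DMSO and at 7.23, 6.22 and 7.89 CPM after SCR-6920. All treated samples lay above all DMSO samples (log2 0.78 ± 0.15, adjusted p = 6.95e-05). TRAM2 was at 74.3 ± 4.56 and 74.8 ± 4.14 CPM (log2 0.01 ± 0.05, adjusted p = 0.913). Its promoter is given below with the other shared ones. The 3 remaining rises named by size lost their calls when single samples were left out. CLN8-AS1 was at 3.84, 3.62 and 3.56 CPM and then at 7.42, 4.5 and 4.85 CPM, so that SCR-6920 replicate 1 stood above the rest. Its log2 fold change of 0.61 ± 0.18 (adjusted p = 0.0061) was 0.34 without that sample, with an adjusted p of 0.151. SLC25A21-AS1 (log2 0.77 ± 0.28, adjusted p = 0.0261) lost its call on leaving out any of 3 samples, and PRKCZ-AS1 (log2 0.76 ± 0.30, adjusted p = 0.042) on leaving out any of 4. Over all 66 calls, 45 held on leaving out each sample in turn, 36 of them lower and 9 higher.

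**Figure D2:**
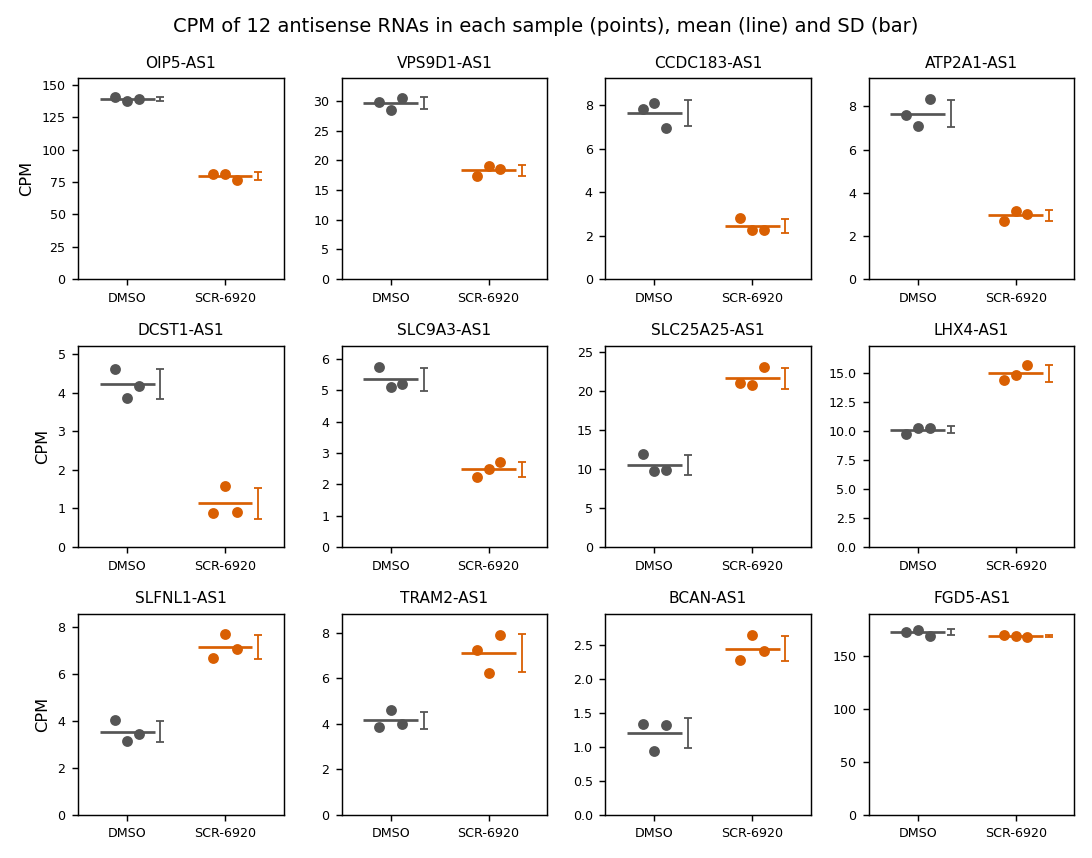
CPM of 12 antisense RNAs in each of the 6 samples (points), with the group mean (line) and SD (bar, n = 3); each y axis starts at 0. The DMSO and SCR-6920 points are apart for 11 of them, and for FGD5-AS1, with group means of 172 and 169 CPM, they overlap.

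The sense genes did not shift as a group. The 253 antisense RNAs carry 248 sense names, of which 224 were tested, 56 rose, 56 fell and 112 did not pass. Called sense genes were thus 112 of 224, where 42.0% of all genes were called, and their median log2 fold change was 0.0022. Across the 226 antisense RNAs whose sense gene was tested, the log2 changes of antisense RNA and sense gene had a Pearson r of 0.108 and a Spearman rho of 0.124. This describes pairs measured in the same 6 libraries, and pairs are not independent replicates. Per length, the antisense RNA was below its sense gene in most pairs. Its FPKM was higher in 54 of 242 pairs, and the median antisense level was 0.182 times the sense level.

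Where the antisense RNA fell, the sense gene also fell in 16 pairs, rose in 8, did not pass in 21, was not tested in 4 and was not in the table in 1. Where it rose, the sense gene rose in 2 pairs, fell in 1, did not pass in 10, was not tested in 2 and was not in the table in 1. Pairs in which both fell numbered 11 without DMSO replicate 2 or without SCR-6920 replicate 1. They include OIP5, DDX11, LENG8 and MYLK, ARRDC1-AS1 (log2 -0.63 ± 0.09, adjusted p = 1.29e-06) with ARRDC1 (log2 -0.39 ± 0.10, adjusted p = 0.00173), and DDN-AS1 (log2 -0.69 ± 0.17, adjusted p = 0.00171) with DDN (log2 -0.84 ± 0.13, adjusted p = 2.89e-06). DDX11 fell from 62.9 ± 1.09 to 44.2 ± 0.54 CPM (log2 -0.51 ± 0.05, adjusted p = 4.93e-10). The pairs in which both rose were JMJD1C, a member of a histone demethylase family, and SH3BP5, an exchange factor for the GTPase RAB11. JMJD1C-AS1 rose with a log2 change of 0.35 ± 0.10 (adjusted p = 0.00561) beside 0.48 ± 0.03 for JMJD1C (adjusted p = 1.04e-13). SH3BP5-AS1 rose with a log2 change of 0.43 ± 0.10 (adjusted p = 0.00117) beside 0.50 ± 0.16 for SH3BP5 (adjusted p = 0.0114). Pairs in which both rose numbered 1 without DMSO replicate 2 or without SCR-6920 replicate 3, and 3 without DMSO replicate 3. The library kit keeps strand, but no source used here says whether reads were counted by strand. If strand was ignored, reads cannot be assigned to a strand where antisense RNA and sense gene overlap. How reads lying over exons of both genes were treated is not stated either. Reads from introns of the sense gene could then be counted for the antisense RNA. The part of this in pairs that moved together was not tested. In the 233 antisense RNAs with exons found in GENCODE v29, a median of 8.33% of exon bases lay under an exon of the opposite strand, 44 had no such base and 20 had over 50%. Bases under an intron of the opposite strand were not counted, so this share does not bound the reads that could be misassigned.

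In 9 pairs the antisense RNA and its sense gene were called in opposite directions, 8 with the antisense RNA lower. Over all 253 antisense RNAs, 50 fell and 16 rose, and of the 224 tested sense genes 56 fell and 56 rose. Whether the 9 pairs differ from what these counts would give was not tested. ZNF337-AS1, tail to tail with a zinc finger gene, was at 4.19, 4.23 and 4.79 CPM and fell to 1.68, 1.87 and 2.91 CPM (log2 -1.03 ± 0.21, adjusted p = 0.000137). ZNF337 was at 40.1, 42.1 and 39.6 CPM and rose to 67.2, 69.7 and 69.6 CPM (log2 0.76 ± 0.05, adjusted p = 6.31e-14). Neither gene's groups overlapped. PXN-AS1, tail to tail with the gene of the focal adhesion protein paxillin, was at 4.22, 3.29 and 4.19 CPM and fell to 2.04, 1.74 and 1.55 CPM (log2 -1.13 ± 0.21, adjusted p = 5.39e-05). PXN rose from 41.8, 41.2 and 42.2 CPM to 51.9, 54.9 and 53.7 CPM (log2 0.36 ± 0.05, adjusted p = 1.3e-06). Here, too, the treated samples were apart from the DMSO samples for both genes. THUMPD3-AS1, which contains the gene of a tRNA methyltransferase subunit, was at 14.3, 14.7 and 13.9 CPM and fell to 9.2, 8.64 and 7.4 CPM (log2 -0.76 ± 0.11, adjusted p = 6.65e-07). THUMPD3 rose from 74 ± 3.86 to 84.3 ± 3.73 CPM (log2 0.19 ± 0.05, adjusted p = 0.00123).

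ANO3-AS1 starts beside the gene of the membrane protein anoctamin 3 with no overlap. It was at 2.9, 3.59 and 3.69 CPM and fell to 1.68, 2.19 and 1.94 CPM (log2 -0.81 ± 0.22, adjusted p = 0.00279), while ANO3 rose from 94.3 ± 3.86 to 120 ± 5.05 CPM (log2 0.35 ± 0.04, adjusted p = 2.77e-08). CXXC4-AS1 was at 1.64, 1.56 and 1.86 CPM and fell to 0.812, 0.885 and 0.787 CPM (log2 -1.02 ± 0.32, adjusted p = 0.0107). CXXC4, which encodes an inhibitor of Wnt signalling, rose from 413 ± 34.2 to 539 ± 13.1 CPM (log2 0.38 ± 0.06, adjusted p = 0.00348). SBF2-AS1 was at 2.98, 3.37 and 3.61 CPM and then at 2.54, 1.61 and 1.63 CPM, with SCR-6920 replicate 1 nearest to the DMSO samples (log2 -0.78 ± 0.23, adjusted p = 0.00547). SBF2, a gene of the myotubularin family, rose by a small amount (log2 0.16 ± 0.05, adjusted p = 0.0122). The other opposite pairs were TTC28-AS1 at -0.54 ± 0.15 beside TTC28 at 0.18 ± 0.05, TPT1-AS1 at -0.68 ± 0.25 beside TPT1 at 0.11 ± 0.02, and TP73. TPT1-AS1 lost its call on leaving out any of 4 samples.

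**Figure D3:**
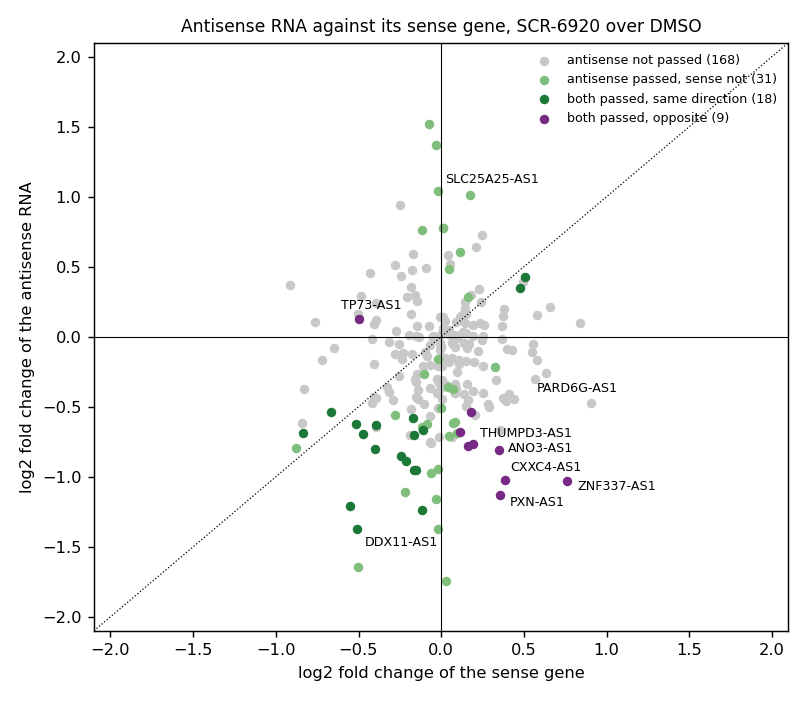
Log2 fold change of the antisense RNA (y axis) against that of its sense gene (x axis) for 226 pairs, SCR-6920 over DMSO; purple pairs were called in opposite directions, dark green in the same direction, light green for the antisense RNA only, and the dotted line marks equal changes. Of the 9 purple pairs, 8 lie at the lower right, where the antisense RNA fell and the sense gene rose. Over all 253 antisense RNAs, 50 fell and 16 rose.

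The ratio of antisense RNA to sense gene was tested directly, because a ratio within a sample does not depend on the scaling of the library. In limma, with Benjamini-Hochberg adjustment over 501 pairs of the table, 14 of the 226 pairs passed, 9 lower and 5 higher. This was 6.19%, against 5.99% of all 501 pairs, of which 4.79% fell and 1.2% rose, so the count lay near the share over all pairs. The 226 are among the 501, which also hold other kinds of non-coding RNA named after a gene, so the shares are not separate. The ratio fell for ZNF337-AS1 (log2 change -1.81 ± 0.24, adjusted p = 0.0153), PXN-AS1 (-1.47 ± 0.20, adjusted p = 0.0153), THUMPD3-AS1 (-0.96 ± 0.15, adjusted p = 0.0212) and PARD6G-AS1 (-1.34 ± 0.20, adjusted p = 0.0212). The last of these came mainly from the sense side. PARD6G, a gene of the cell polarity complex, rose from 13.5 ± 1.06 to 25.4 ± 1.36 CPM, and PARD6G-AS1 did not pass by itself (log2 -0.47 ± 0.35, adjusted p = 0.306). The ratio also fell for ANO3-AS1, ELOA-AS1, CXXC4-AS1, ATP2A1-AS1 and EMC3-AS1, by changes from -1.65 to -0.68. It rose for SLC25A25-AS1 (1.07 ± 0.17, adjusted p = 0.0218) and TRAM2-AS1 (0.76 ± 0.17, adjusted p = 0.0448). It rose also for AP1G2-AS1 and C1RL-AS1, which did not pass by themselves while AP1G2 and C1RL fell (log2 -0.91 and -0.76). No call on a ratio held without DMSO replicate 1 or without DMSO replicate 3 (limma; at an unadjusted p under 0.05 there were 17 rises and 33 falls, and 20 rises and 34 falls).

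Where the pair lies on the chromosome could be read from GENCODE v29 for 228 of the 253 antisense RNAs. For comparison, 26.1% of all 253 antisense RNAs and 42.0% of all genes tested were called. Differences between the layouts, or from these shares, were not tested. The 46 that meet their sense gene tail to tail had 16 falls and 4 rises, 43.5% called, with a median log2 fold change of -0.37. The 35 inside their sense gene had 10 falls and 4 rises, 40.0% called, with a median of -0.31, and the 15 that contain their sense gene had 5 falls and 1 rise, with a median of -0.26. The 118 that overlap head to head with their sense gene had 16 falls and 3 rises, 16.1% called, with a median of -0.18. The 13 that start apart and run away had 1 fall and 1 rise, with a median of -0.01, and 1 was convergent without overlap. Rises inside the sense gene were 2 without SCR-6920 replicate 2 or 3, and head-to-head rises were 1 without DMSO replicate 3. The median mean count was 107 for the tail-to-tail group and 79.6 for the head-to-head group, so the groups also differed in depth, and the part of depth in these shares was not tested. The sense genes of the tail-to-tail group had 13 falls and 10 rises, and those of the head-to-head group 29 falls and 30 rises. Over all 224 tested sense genes, 56 fell and 56 rose.

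**Figure D4:**
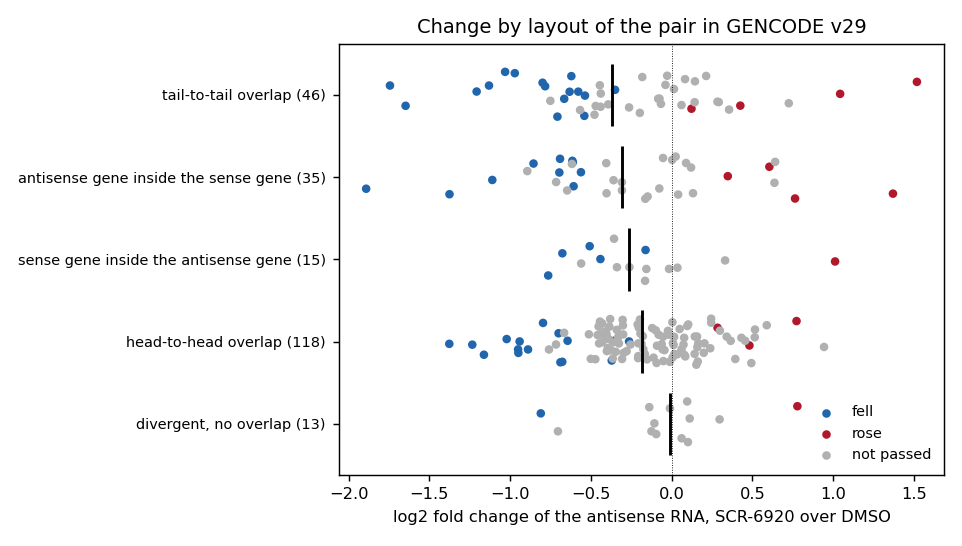
Log2 fold change of each antisense RNA (x axis, SCR-6920 over DMSO) by the layout of the pair in GENCODE v29, with the number of RNAs in brackets, the median as a black line and points spread vertically to be visible; the 25 RNAs with no layout and the 1 convergent pair are left out. The median is -0.37 for tail-to-tail pairs and -0.18 for head-to-head pairs.

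For 179 pairs RefSeq gave a promoter window on GRCh38.p14 for both genes, running from 250 bases before to 50 bases after the start. The windows of 38 pairs overlapped on opposite strands. In these, 5 antisense RNAs fell, 1 rose and 32 did not pass. Over all 253, 50 fell and 16 rose, or 26.1% called. Of the sense genes in the 38 pairs, 7 fell, 14 rose and 17 did not pass. Over all 224 tested sense genes, 56 fell and 56 rose, and 42.0% of all genes tested were called. Differences from these shares were not tested. In the 38 pairs, antisense RNA and sense gene both fell in 2, LENG8 and DDX11, and the pair of TPT1 moved in opposite directions. TPT1 encodes TCTP, an abundant growth-linked protein. The promoters of a pair that fell together, of a pair called in opposite directions and of an antisense RNA that rose while its partner did not pass are shown 5′ to 3′ on the strand of the antisense RNA. Capitals mark GC boxes, searched as GGGCGG on either strand, with matches that share bases counted separately, and CCAAT boxes, searched as CCAAT on either strand, which gave no match in these windows.
DDX11-AS1, chr12:31073798-31074097, minus strand: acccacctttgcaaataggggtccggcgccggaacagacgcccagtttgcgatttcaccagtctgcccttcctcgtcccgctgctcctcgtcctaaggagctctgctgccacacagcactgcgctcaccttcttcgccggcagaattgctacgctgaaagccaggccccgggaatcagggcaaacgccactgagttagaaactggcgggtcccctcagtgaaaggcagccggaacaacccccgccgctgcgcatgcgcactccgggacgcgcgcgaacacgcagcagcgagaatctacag
TPT1-AS1, chr13:45341095-45341394, plus strand: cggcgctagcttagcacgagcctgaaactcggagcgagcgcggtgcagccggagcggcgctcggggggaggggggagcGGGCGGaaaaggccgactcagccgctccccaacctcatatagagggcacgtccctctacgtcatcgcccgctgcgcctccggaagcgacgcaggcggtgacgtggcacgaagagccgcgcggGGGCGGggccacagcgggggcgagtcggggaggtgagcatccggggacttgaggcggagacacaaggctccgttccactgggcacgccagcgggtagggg
TRAM2-AS1, chr6:52576952-52577251, plus strand: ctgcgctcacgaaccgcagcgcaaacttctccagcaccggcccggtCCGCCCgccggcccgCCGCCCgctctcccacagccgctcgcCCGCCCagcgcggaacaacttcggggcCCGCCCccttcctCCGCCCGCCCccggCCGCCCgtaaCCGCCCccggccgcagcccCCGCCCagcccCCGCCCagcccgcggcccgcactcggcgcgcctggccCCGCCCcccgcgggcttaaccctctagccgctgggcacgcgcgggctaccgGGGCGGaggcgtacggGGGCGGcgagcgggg

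The sense gene starts on the opposite strand at position 238 of the DDX11-AS1 window, position 89 of the TPT1-AS1 window and position 109 of the TRAM2-AS1 window. The DDX11-AS1 window had no GC box and was 62.7% G or C with 27 CpG sites. The TPT1-AS1 window had 2 GC boxes, 71.7% G or C and 38 CpG sites, and the TRAM2-AS1 window had 13 GC-box matches, 82.0% G or C and 49 CpG sites. Over the 204 antisense RNAs with a window, 60.8% held a GC box, against 44.9% of all 34796 RefSeq windows of this length. A CCAAT box was in 28.4% against 34.6%, the TATA box TATAAA in 4.41% against 11.6%, the E-box CACGTG in 6.37% against 7.2%, and the p53 half-site in 10.3% against 6.65%. Of the 48 fallen antisense RNAs with a window, 28 held a GC box and 16 a CCAAT box, and of the 9 that rose 3 and 4 did. The 34796 windows were not restricted to genes with counts here, whereas the antisense RNAs had a minimum count. Differences between these shares were not tested. These are matches of letters in a window and not measured binding.

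Of 34 antisense RNAs that published cell-line work links to growth, 16 fell, 2 rose and 16 did not pass, with a median log2 fold change of -0.35 beside -0.17 for all 253. Falls were 19.8% of the 253 and 21.3% of all genes tested. The difference from these was not tested, and the share called differed by abundance, as given above. OIP5-AS1, VPS9D1-AS1 and ARRDC1-AS1 fell with the smallest p-values. THAP9-AS1, antisense to a gene derived from a transposase, was at 26.1, 25.8 and 22 CPM and rose to 27.7, 29.6 and 32.6 CPM (log2 0.28 ± 0.08, adjusted p = 0.003). The other rise was TP73-AS1, so that 1 rise was left on leaving out any sample other than DMSO replicate 2. Also in this list, NUTM2A-AS1 fell (log2 -0.44 ± 0.11, adjusted p = 0.000915), but it has a near-identical copy in NUTM2B-AS1, and how reads were split between them is uncertain. TTN-AS1 (-0.18 ± 0.11), ZEB1-AS1 (-0.21 ± 0.16) and NR2F1-AS1 (-0.21 ± 0.09) did not pass, at adjusted p-values of 0.178, 0.325 and 0.0693.

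Of 7 antisense RNAs named after genes of the cell cycle, replication or repair, 4 fell and 3 did not pass, with a median of -0.67, where falls were 19.8% of the 253 and 21.3% of all genes; with 7 RNAs nothing is read from this about the list. MCM3AP is best known as an mRNA export factor and CCNT2 as a cyclin of transcription elongation, and MCM3AP-AS1 holds the median value. TMPO-AS1, beside a gene of the nuclear lamina, was at 9.37, 8.59 and 8.78 CPM and fell to 5.14, 6.01 and 5.95 CPM (log2 -0.64 ± 0.13, adjusted p = 0.000125). TMPO did not pass (log2 -0.12 ± 0.08, adjusted p = 0.347). MCM3AP-AS1, tail to tail with MCM3AP, was at 5.96, 6.93 and 5.82 CPM and fell to 3.64, 3.72 and 4.43 CPM (log2 -0.66 ± 0.15, adjusted p = 0.000721). The groups of both RNAs were separate. OIP5-AS1 and DDX11-AS1 were the other falls, and of those that did not pass CCNT2-AS1 (-0.67 ± 0.33) and CCND2-AS1 (0.39 ± 0.42) had adjusted p-values of 0.107 and 0.489. Of 7 whose names begin like those of RNA-processing genes, WAC-AS1 (-0.36 ± 0.10), TPT1-AS1, DICER1-AS1 (-0.94 ± 0.33, adjusted p = 0.0231) and DDX11-AS1 fell, with a median over the 7 of -0.36. Here, too, falls were 19.8% of the 253 and 21.3% of all genes, and with 7 RNAs nothing is read about the list. Of the 4 sense genes, DICER1 encodes the nuclease that makes mature microRNAs and WAC acts in histone ubiquitination, while TPT1 and DDX11 have the roles named above and are no splicing factors. This list had 1 fall without SCR-6920 replicate 1 and 2 without SCR-6920 replicate 3.

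For the lists that follow, 26.1% of the 253 antisense RNAs and 42.0% of all genes tested were called. Differences from these shares were not tested. Of 17 antisense RNAs named after zinc finger genes, ZNF710-AS1 rose, ZNF337-AS1 fell and 15 did not pass, with a median of -0.04. A second one fell without DMSO replicate 1. Of 13 named after HOX clusters or other developmental regulators, LHX4-AS1 and HOXC-AS1 (0.54 ± 0.18, adjusted p = 0.0183) rose, DLX6-AS1 and MEIS1-AS3 (-0.26 ± 0.08, adjusted p = 0.00604) fell, and 9 did not pass. The median was -0.20, and PAXIP1-AS2, which is no developmental regulator's antisense RNA, was taken in by its first letters. HOXC-AS1 lost its call on leaving out any of 4 samples. The 6 with immune names had adjusted p-values from 0.132 for CD27-AS1 to 0.917 for HLA-F-AS1 and a median of -0.24, and TAPT1-AS1 was taken in by its first letters. Of 3 named after p53 targets or p53 family genes TP73-AS1 rose, ZNF561-AS1 (-0.41 ± 0.26) and CCND2-AS1 did not pass, and the median was 0.12.

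The series title names HIF-1α, and the antisense RNAs of HIF1A lay under the threshold. HIF1A-AS1 had a mean count of 16.2, HIF1A-AS2 of 2.33 and HIF1A-AS3 of 0, and P4HA2-AS1, beside a HIF-induced collagen hydroxylase gene, had 0.167. HILPDA-AS1, chosen after its values were seen, was at 4.59, 3.16 and 4.59 CPM and then at 3.09, 4.4 and 3.54 CPM. Its groups overlapped (log2 -0.16 ± 0.19, adjusted p = 0.525), beside HILPDA, a HIF-induced lipid droplet gene (log2 -0.24 ± 0.10, adjusted p = 0.0482).

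The count threshold took in TEDC2-AS1, CCND2-AS1 and RALY-AS1, with mean counts of 30.8, 30.7 and 30.2, and left out MBNL1-AS1, MORF4L2-AS1 and GOLGA4-AS1, with 29.3, 29.2 and 29. GOLGA4-AS1 was itself called as a rise past 2-fold with groups that did not overlap (edgeR, log2 1.12 ± 0.46, adjusted p = 0.0495). A slightly lower threshold would thus have added it to the rises. All 253 passed the filter on low counts. Of the rows under the threshold, 126 were tested, 7 fell and 2 rose, with a median log2 fold change of -0.11. Among all genes tested, 21.3% fell and 20.6% rose.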

How the data were processed

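RNA sequencing was analysed for 3 DMSO and 3 SCR-6920 samples of A2780 cells, grouped by sample title. Per the labels, libraries were made with a stranded mRNA kit. Per the submitters' processing notes, HISAT2 and HTSeq were used, with GRCm38, a mouse build, as the genome; the build behind these human genes is therefore unclear and no coordinates are taken from the files. No source used here says whether reads were counted by strand. The authors deposited raw counts per gene and, separately, FPKM values, a unit scaled to sample total and gene length.

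Members, lists and tests were chosen with earlier results of these data known. All genes were fitted in R 4.3.3 with edgeR 4.0.16 (filterByExpr, TMM, robust glmQLFit and glmQLFTest, group as the only term), with Benjamini-Hochberg adjustment over 14233 genes. CPM uses TMM-scaled totals. The log2 CPM of the antisense RNA minus that of its partner, with a prior count of 2, was tested with limma 3.58.1 (trend) over 501 pairs. These were all pairs with both genes tested and a name ending in AS, DT, IT or OT with an optional number. They include the 226 pairs of members, and no minimum mean count was set. Both scripts were tested on simulated data. Layouts come from GENCODE v29 and promoters and miR-7 from RefSeq (GRCh38.p14).

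Members named were the 10 largest rises and falls among called members without overlap, the 6 most abundant, 6 opposite pairs, 4 further pairs by ratio p, up to 3 each way per list, and those at the threshold. DDN, JMJD1C, SH3BP5, TTC28, TPT1, EMC3, AP1G2, C1RL, NUTM2A-AS1, HILPDA-AS1 and list members that did not pass were named after their values were seen. One item within the counts is not reported here by name. Alternatives were RLE factors, library size alone, no or stricter filters, DESeq2 1.42.0, limma on log2(FPKM + 1) and log2(FPKM + 0.1), the replicate number as a block, each sample left out, and an adjusted p under 0.01. Same-numbered samples had correlations of their deviations of 0.0066, 0.0050 and 0.038. These show no shared deviation by number, but they cannot exclude that samples were paired, which no label states.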

Additional observations from a re-analysis of the deposited data

How the results depend on the processing

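Under RLE factors, library size alone, other filters, DESeq2, limma on FPKM, the replicate block, an adjusted p under 0.01 and each left-out sample, the antisense RNAs that rose numbered 11 to 18 (16 as reported) and those that fell 38 to 63 (50), and sense genes 44 to 62 and 45 to 57 (56 each way), all within 1.5 times the reported counts. With the replicate number as a block, 16 rose and 52 fell; all 66 calls were kept under it.

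The ratio calls were less stable. The 5 rises became 3 with a prior count of 0.5, 1 with the replicate block, 1 without the trend and 0 at an adjusted p under 0.01, and 0 to 3 on leaving out a sample. The 9 falls became 5 with the replicate block and 0 at an adjusted p under 0.01, and 0 to 5 on leaving out a sample. In limma with all samples, 22 rises and 47 falls had an unadjusted p under 0.05. The cause was not tested. TRHDE-AS1 reversed to -0.0181 without DMSO replicate 3 and passed at 0.1191 without DMSO replicate 1. Pairs called in opposite directions numbered 7 to 11 over the alternatives at 0.05.

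With 139 of 253 antisense RNAs under 100 counts, changes under 2-fold in these are often not detectable at this depth.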
